A study of Mus musculus with 12 samples.

Results

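The 10 genes described here, Hspa5, Hsp90b1, Calr, Pdia4, Pdia6, Sdf2l1, Creld2, Manf, Xbp1 and Ddit3, belong to the unfolded protein response of the endoplasmic reticulum (ER). They were taken by name, as a list of well-known genes of that response, from a table of 17283 genes. These genes and the other gene lists below were chosen with earlier results of these data known. All 10 were present, and all 10 passed the filter on low values that left 13586 genes for testing. The tissue was medial prefrontal cortex (mPFC), and RNA was sequenced in C57 and BTBR mice. C57, labelled as wild type, is the reference, and BTBR is an inbred line in which autism is modelled. Mice were injected intraperitoneally over 7 days with ASIV (astragaloside IV), a plant saponin, or with its solvent dimethyl sulfoxide (DMSO, called vehicle here). This gave 4 groups of 3 libraries: C57 vehicle, C57 ASIV, BTBR vehicle and BTBR ASIV. The series asked whether ASIV improves neurotransmission in BTBR mice. The strains differ at many loci, so a strain difference is not tied to any 1 gene, and no dose, age or sex is given in the labels.

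The ER folds proteins that enter the secretory pathway. When unfolded proteins accumulate there, the sensors IRE1 (gene Ern1), PERK (Eif2ak3) and ATF6 (Atf6) signal to the nucleus, and the genes of chaperones and folding enzymes are transcribed more strongly. The transcription factor XBP1 acts downstream of IRE1, and CHOP, the product of Ddit3, acts downstream of PERK. Neurons depend on this system for the folding of receptors, channels and secreted peptides.

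Many promoters of this response carry the ER stress element, a binding site of ATF6 together with the general factor NF-Y, read here as CCAAT, then any 9 bases, then CCACG, on either strand. RefSeq promoter windows (GRCm38.p6, 250 bases before and 50 bases after the gene start) were at hand for 9 of the 10 genes. The element was found in 5 of these 9, and in 39 of all 32851 windows (0.119%). The element is known from promoters of this response, and the genes were chosen as well-known members of it. A larger share among them was therefore built into the choice and is not a test. The windows that hold it are printed 5′ to 3′ on the strand of the gene, because this sequence is shared by several of the genes. Capitals mark the outer bases of each element, CCAAT and CCACG on the gene's strand, or CGTGG and ATTGG where the element lies on the other strand.
Hspa5 (chr2:34771840-34772139, + strand): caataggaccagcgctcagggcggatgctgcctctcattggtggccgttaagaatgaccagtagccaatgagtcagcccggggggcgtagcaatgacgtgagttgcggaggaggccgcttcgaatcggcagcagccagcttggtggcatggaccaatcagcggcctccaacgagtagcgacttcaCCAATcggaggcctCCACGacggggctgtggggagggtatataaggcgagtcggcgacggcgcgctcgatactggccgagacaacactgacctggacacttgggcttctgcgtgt
Hsp90b1 (chr10:86705395-86705694, - strand): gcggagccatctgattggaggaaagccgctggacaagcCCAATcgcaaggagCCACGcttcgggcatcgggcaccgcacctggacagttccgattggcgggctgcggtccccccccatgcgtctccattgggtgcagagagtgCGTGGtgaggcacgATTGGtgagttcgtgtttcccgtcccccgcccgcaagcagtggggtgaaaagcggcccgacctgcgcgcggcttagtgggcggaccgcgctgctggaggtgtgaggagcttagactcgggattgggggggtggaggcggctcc
Calr (chr8:84846882-84847181, - strand): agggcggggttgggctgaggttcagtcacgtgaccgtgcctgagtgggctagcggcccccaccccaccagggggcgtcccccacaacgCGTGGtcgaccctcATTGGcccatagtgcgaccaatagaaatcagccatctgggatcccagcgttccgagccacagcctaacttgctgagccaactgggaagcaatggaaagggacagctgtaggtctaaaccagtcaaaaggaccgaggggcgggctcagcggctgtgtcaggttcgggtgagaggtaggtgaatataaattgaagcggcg
Pdia6 (chr12:17266339-17266638, + strand): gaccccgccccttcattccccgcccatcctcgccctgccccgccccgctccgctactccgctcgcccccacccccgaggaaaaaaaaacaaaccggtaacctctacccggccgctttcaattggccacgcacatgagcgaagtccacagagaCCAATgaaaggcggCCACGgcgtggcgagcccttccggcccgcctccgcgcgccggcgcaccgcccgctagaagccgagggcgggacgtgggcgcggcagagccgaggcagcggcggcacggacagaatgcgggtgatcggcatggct
Creld2 (chr15:88819396-88819695, + strand): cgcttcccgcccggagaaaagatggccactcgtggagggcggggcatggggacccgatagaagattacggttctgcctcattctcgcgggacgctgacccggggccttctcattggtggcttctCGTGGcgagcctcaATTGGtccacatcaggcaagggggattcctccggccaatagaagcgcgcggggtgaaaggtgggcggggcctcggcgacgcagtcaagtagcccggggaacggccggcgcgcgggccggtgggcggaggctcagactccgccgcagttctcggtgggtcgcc

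Positions are counted from the RefSeq gene start, while the gene coordinates given with the values below are those of GENCODE M21 (mm10). The RefSeq start of Hspa5 lies 120 bases inside the GENCODE gene, that of Hsp90b1 65 bases inside and that of Pdia6 44 bases inside, so their elements lie closer to the GENCODE start or within the GENCODE gene. The starts of Calr differ by 3 bases and those of Creld2 by 0. The Hspa5 element runs from base -65 to base -47, and the Pdia6 element from base -98 to base -80. Hsp90b1 has a pair of elements, from base -212 to base -194 on the strand of the gene and from base -107 to base -89 on the other strand. The Calr element lies on the other strand from base -162 to base -144, and so does the Creld2 element, from base -126 to base -108. The same letters were not in the windows of Pdia4, Sdf2l1, Xbp1 and Ddit3. A match of letters is a description and does not show that a factor binds there. A further 3 motifs were searched on both strands in the windows of the same 9 genes, and none of them was found there: ATTGG, any base, CCACG (present in 0.0365% of all windows), TGACGTGG (0.676%), and TGATG, any base, AA, then C or T (1.77%).

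**Figure D1:**
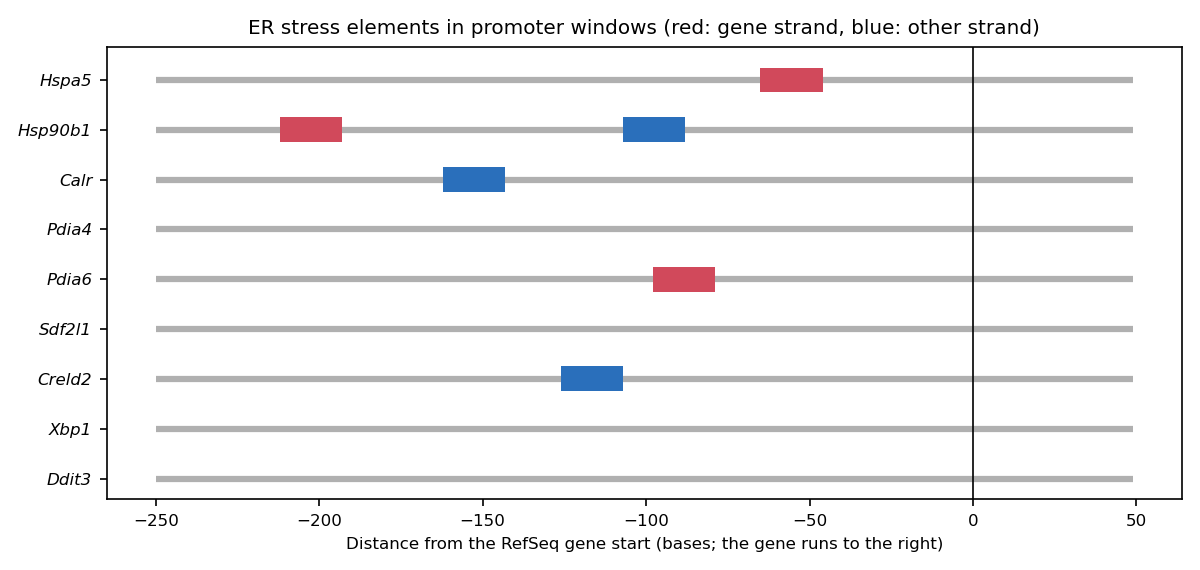
Position of the ER stress element in the promoter windows of the 9 genes with a RefSeq window, in bases from the gene start. Each grey line is 1 window, red blocks lie on the strand of the gene and blue blocks on the other strand. Hsp90b1 has 2 blocks, Hspa5, Calr, Pdia6 and Creld2 have 1 each, and the other 4 windows have none.

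Library sizes recovered from the FPKM values (fragments scaled to gene length and to library size) ran from 16166327 to 18660040 fragments. The lowest of the 10 genes, Sdf2l1, had at least 119 fragments in every library, a counting error of 9.17%, and Hspa5 had at least 2731, a counting error of 1.91%. Libraries of 1 group correlated with r from 0.971 to 0.992 across genes. The mean variance within a group, over all tested genes, was 0.0226 in C57 vehicle and 0.0376 in C57 ASIV. It was 0.0642 in BTBR vehicle and 0.05 in BTBR ASIV, and the fit on all 12 libraries shares 1 estimate of the spread across the groups. On the first principal component, 54% of the variance, the 3 BTBR vehicle libraries stood apart at 36.9 to 47.8, with the other 9 libraries between -23.7 and 2.3. The mRNAs of the mitochondrial genome took 0.342 to 0.640% of fragments in the BTBR vehicle libraries, 3.03 to 3.23% in BTBR ASIV, 4.48 to 4.83% in C57 vehicle and 2.96 to 4.72% in C57 ASIV. Every difference below that involves BTBR vehicle therefore moves together with this share, and the part of the share in those differences was not tested beyond the rescaled values given beside them. The labels do not say whether libraries came from separate animals, so p-values measure the spread between libraries, which may be technical.

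In vehicle-treated mice, 5 of the 10 genes were higher in BTBR than in C57, 1 was lower and 4 did not pass the test. The genes that rose were Creld2, Hspa5, Pdia6, Hsp90b1 and Pdia4, by 1.26 to 1.90 times (ratio of FPKM + 1), and the gene that fell was Ddit3. Over all tested genes the same comparison called 22.3% higher and 20.8% lower, so a large share of the transcriptome differed between these groups. The median log2 difference of the 10 genes was 0.21, and that of all genes was 0.01. In BTBR, ASIV-treated libraries had lower levels than vehicle libraries for Creld2, Hspa5, Pdia6 and Hsp90b1, 4 of the 10 genes, and no gene was called higher. Over all genes 13.7% were called higher and 15.4% lower by ASIV in BTBR. The median of the 10 genes was -0.02 there and that of all genes -0.01. Both comparisons use the same 3 BTBR vehicle libraries, so a gene that is high in those libraries tends to appear in both, and the values are given side by side below.

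**Figure D2:**
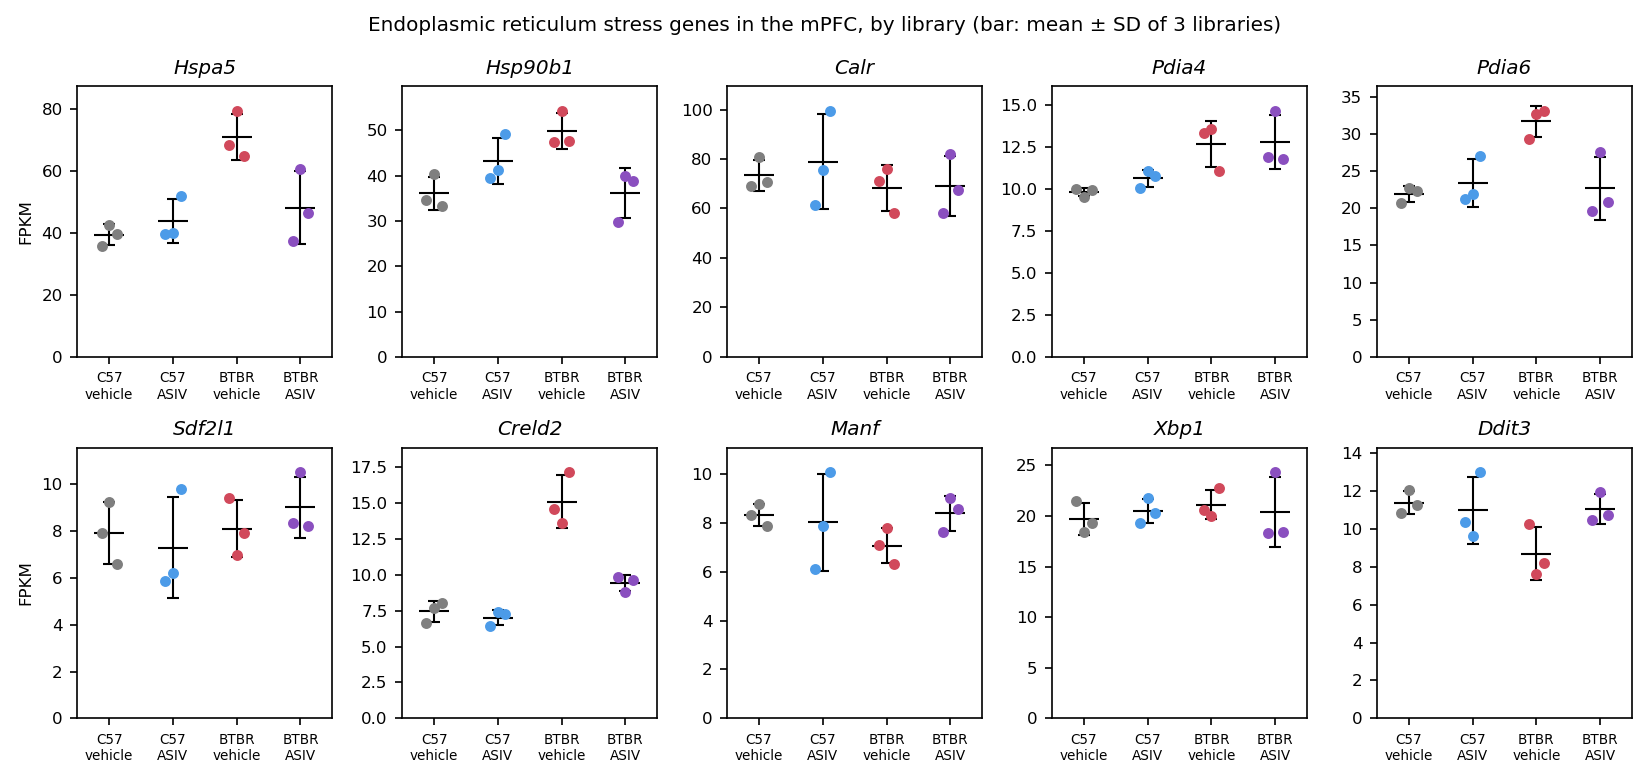
FPKM of the 10 genes in the 12 libraries, by group, on linear axes that start at 0. Points are libraries and bars are the mean ± SD of 3 libraries. The BTBR vehicle libraries of Hspa5, Pdia6 and Creld2 lie above the libraries of all other groups.

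Hspa5 encodes BiP, the main HSP70-type chaperone of the ER lumen, which also holds the stress sensors inactive. The gene (chr2:34771970-34777547) stood at 35.9, 42.7 and 39.7 FPKM in the C57 vehicle libraries and at 68.5, 79.6 and 65.0 FPKM in BTBR vehicle. Under ASIV it stood at 39.7, 40.1 and 52.0 FPKM in C57 and at 37.4, 60.6 and 46.6 FPKM in BTBR. All 3 BTBR vehicle libraries were above the other 9, while the remaining 3 groups overlapped one another. The strain difference under vehicle was 0.83 ± 0.16 (SE) on the log2(FPKM + 1) scale, with adjusted p = 0.00147 (limma). With ASIV in BTBR the level was 1.49 times lower, a log2 difference of -0.57 ± 0.16 with adjusted p = 0.0192 (limma). The call for ASIV in BTBR was lost in a fit on the 6 BTBR libraries alone (adjusted p = 0.0627, limma). It was also lost without BTBR vehicle replicate 2, BTBR ASIV replicate 1 or BTBR ASIV replicate 3 (adjusted p = 0.0589, 0.0766 and 0.0517).

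Hsp90b1 encodes GRP94, the HSP90 of the ER, which folds integrins, Toll-like receptors and other secretory clients. The gene (chr10:86690209-86705509) stood at 34.7, 40.3 and 33.4 FPKM in C57 vehicle and at 47.5, 54.3 and 47.5 FPKM in BTBR vehicle. Under ASIV it stood at 39.5, 41.2 and 49.1 FPKM in C57 and at 29.7, 40.0 and 38.8 FPKM in BTBR. BTBR vehicle did not overlap C57 vehicle or BTBR ASIV, but 1 C57 ASIV library reached its range. The strain difference under vehicle was 0.45 ± 0.13 (adjusted p = 0.0129, limma), lost without C57 vehicle replicate 3 (adjusted p = 0.0528). ASIV in BTBR gave -0.46 ± 0.13 (adjusted p = 0.0181, limma). That call was lost in the fit on the BTBR libraries alone (0.0585), and when BTBR vehicle replicate 2 (0.0525) or BTBR ASIV replicate 1 (0.0726) was left out. Of its exon bases, 10.3% are shared with an antisense pseudogene, 1810014B01Rik (mean 1.16 FPKM), and the use of strand in counting is not given in the sources used here.

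Calr encodes calreticulin, a calcium-binding lectin chaperone of glycoproteins. At 58.0 to 99.6 FPKM over all libraries, the gene (chr8:84841850-84846934) had the highest mean level of the 10, per length. It stood at 69.0, 80.7 and 70.8 FPKM in C57 vehicle and at 70.9, 75.9 and 58.1 FPKM in BTBR vehicle, and the groups overlapped in every comparison. The strain difference under vehicle was -0.11 ± 0.17 and the ASIV difference in BTBR was 0.01 ± 0.17 (adjusted p = 0.639 and 0.970, limma). Calr has the promoter element printed above and did not pass the test in either comparison.

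Pdia6 and Pdia4 encode protein disulfide isomerases, which form and rearrange disulfide bonds in the ER. Pdia6 (chr12:17266545-17284770) stood at 20.7, 22.7 and 22.3 FPKM in C57 vehicle and at 29.3, 32.6 and 33.1 FPKM in BTBR vehicle. Under ASIV it stood at 21.2, 21.9 and 27.1 FPKM in C57 and at 19.6, 27.6 and 20.8 FPKM in BTBR. As for Hspa5, all 3 BTBR vehicle libraries were above the other 9. The strain difference under vehicle was 0.51 ± 0.13 (adjusted p = 0.00643, limma) and the ASIV difference in BTBR was -0.48 ± 0.13 (adjusted p = 0.0144, limma). The ASIV call was lost in the fit on the BTBR libraries alone (0.0558), without BTBR ASIV replicate 1 (0.0593) and without BTBR ASIV replicate 3 (0.0542).

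Pdia4, at chr6:47796141-47813430, was the gene that rose with the strain and was not called with ASIV. It stood at 9.96, 9.53 and 9.90 FPKM in C57 vehicle and at 13.3, 13.6 and 11.1 FPKM in BTBR vehicle. Under ASIV it stood at 10.1, 11.1 and 10.8 FPKM in C57 and at 11.9, 14.6 and 11.8 FPKM in BTBR. Both BTBR groups lay above the C57 group of the same treatment, with no overlap, and the BTBR groups overlapped each other. The strain difference was 0.33 ± 0.10 under vehicle (adjusted p = 0.0192, limma) and 0.24 ± 0.10 under ASIV (adjusted p = 0.224), and the ASIV difference in BTBR was 0.01 ± 0.10 (adjusted p = 0.943). The call under vehicle was lost without C57 vehicle replicate 2, BTBR vehicle replicate 1 or BTBR vehicle replicate 2 (adjusted p = 0.0639, 0.0581 and 0.0554).

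Creld2, Sdf2l1 and Manf encode small ER-resident proteins that are induced by ER stress: CRELD2 acts in disulfide bond formation, SDF2L1 works with BiP and its DnaJ partners, and MANF is a secreted survival factor of neurons. Creld2 (chr15:88819646-88826683) stood at 6.63, 7.66 and 8.06 FPKM in C57 vehicle and at 14.6, 13.6 and 17.2 FPKM in BTBR vehicle. Under ASIV it stood at 6.43, 7.41 and 7.24 FPKM in C57 and at 9.85, 8.78 and 9.66 FPKM in BTBR. The BTBR vehicle libraries were highest, the BTBR ASIV libraries came next without overlap on either side, and the 2 C57 groups overlapped. Creld2 had the largest fitted difference of the 10 genes in both comparisons, 0.93 ± 0.10 between strains under vehicle (adjusted p = 3.69e-05, limma) and -0.62 ± 0.10 with ASIV in BTBR (adjusted p = 0.00106, limma). Both calls held under all 11 other settings tried and with any 1 of the compared libraries left out.

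Sdf2l1 (chr16:17130138-17132383) ran from 5.87 to 10.5 FPKM with overlap between the groups in every comparison, and its strain difference under vehicle was 0.03 ± 0.17 (adjusted p = 0.899, limma). Manf (chr9:106838312-106891979) stood at 8.33, 8.77 and 7.85 FPKM in C57 vehicle, at 7.10, 7.77 and 6.32 FPKM in BTBR vehicle and at 7.61, 9.0 and 8.58 FPKM in BTBR ASIV. Its vehicle groups did not overlap, BTBR being the lower, but the difference of -0.21 ± 0.14 did not pass the test (adjusted p = 0.241, limma). With ASIV in BTBR the Manf difference was 0.22 ± 0.14 (adjusted p = 0.252). The annotated exons of Manf share up to 4.71% of their bases with genes on the other strand.

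Xbp1 and Ddit3 encode the transcription factors XBP1 and CHOP. Xbp1 (chr11:5520659-5525893) kept between 18.4 and 24.3 FPKM in all 12 libraries, with overlap in every comparison. Its strain difference under vehicle was 0.10 ± 0.11 and its ASIV difference in BTBR was -0.06 ± 0.11 (adjusted p = 0.516 and 0.722, limma). The active form of XBP1 comes from an mRNA that IRE1 has spliced, and a table of levels per gene does not show that splicing, which was not analysed here.

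Ddit3 (chr10:127290774-127296288) stood at 10.9, 12 and 11.3 FPKM in C57 vehicle and at 10.3, 7.62 and 8.20 FPKM in BTBR vehicle. Under ASIV it stood at 10.4, 9.63 and 13.0 FPKM in C57 and at 10.5, 12 and 10.7 FPKM in BTBR. The BTBR vehicle group was lower than C57 vehicle and than BTBR ASIV without overlap, the opposite direction to Hspa5. The strain difference was -0.36 ± 0.12 (adjusted p = 0.0306, limma), and the ASIV difference in BTBR, 0.32 ± 0.12, did not pass the test (adjusted p = 0.0669). The strain call rests on the full set of libraries: it was lost without any 1 of the 3 C57 vehicle libraries, BTBR vehicle replicate 2 or BTBR vehicle replicate 3, with adjusted p from 0.0530 to 0.101. Ddit3 shares 3.97% of its exon bases with Mars on the other strand (mean 13.5 FPKM).

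**Figure D3:**
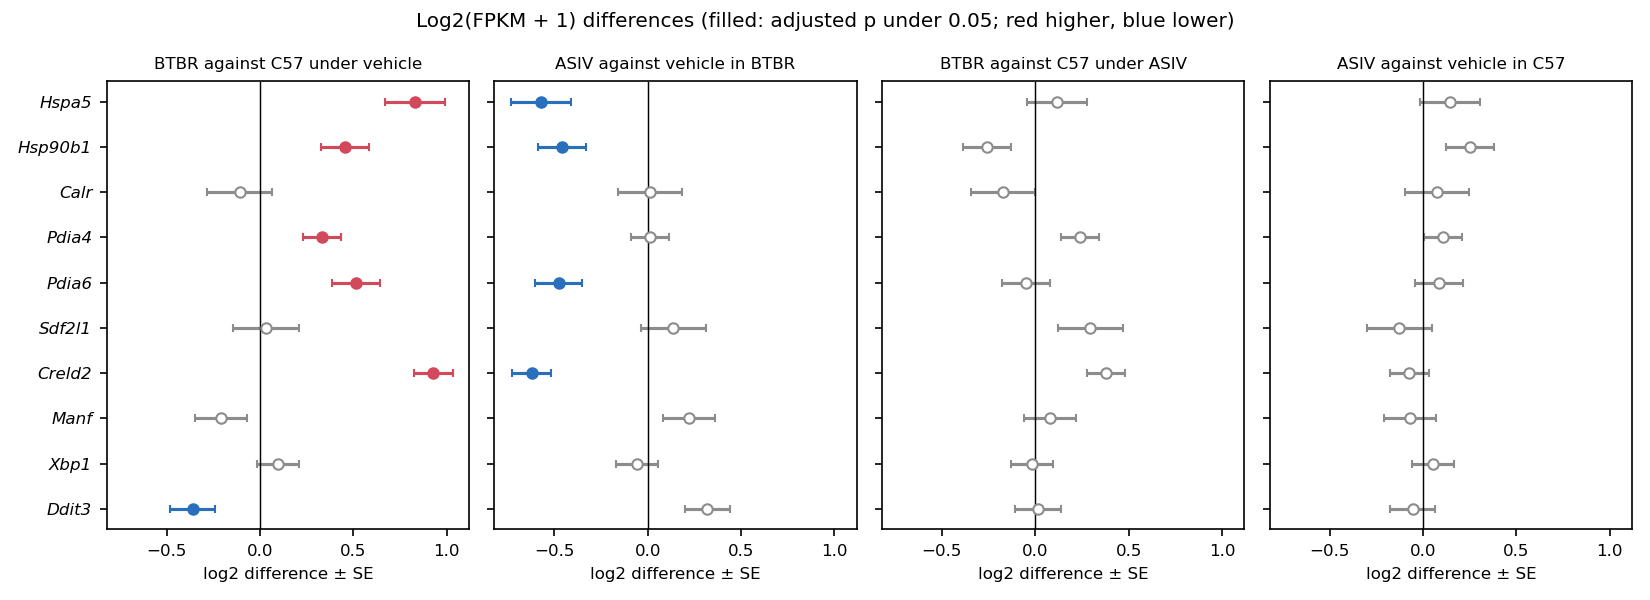
Log2(FPKM + 1) difference ± SE of the 10 genes in 4 comparisons between 2 groups, from the limma fit on all 12 libraries. Filled points have adjusted p under 0.05, red for higher and blue for lower, and open points do not. Between strains under vehicle there are 5 red points and 1 blue, with ASIV in BTBR 4 blue, and in the other comparisons none is filled.

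The ranges of the vehicle groups did not overlap for 7 of the 10 genes, against 53.3% of all tested genes. For ASIV against vehicle in BTBR they did not overlap for 5 of the 10, against 39.1% of all tested genes, so both shares were above but not far from the background. Summed over the 10 genes, the level was 236 ± 14.4 FPKM (SD, n = 3) in C57 vehicle, 294 ± 17.5 in BTBR vehicle, 247 ± 39.4 in BTBR ASIV and 254 ± 40.6 in C57 ASIV. Most of that sum is Calr, Hspa5 and Hsp90b1.

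Under ASIV, none of the 10 genes was called between the strains, where 1.31% of all genes were called higher and 1.22% lower in BTBR. Creld2 came closest, at 0.38 ± 0.10 (adjusted p = 0.0778, limma), with 3 of 3 BTBR libraries above the C57 libraries. Hspa5 was at 0.12 ± 0.16 and Pdia6 at -0.05 ± 0.13 (adjusted p = 0.723 and 0.860). ASIV in C57 gave no call for the 10 genes, where the share of all genes called was 0% higher and 0% lower. In that comparison limma called 0 of 13586 genes, with 417 at an unadjusted p under 0.05, and voom on the recovered fragments called 0. The largest of its differences among the 10 genes was that of Hsp90b1, 0.25 ± 0.13, opposite in sign to its difference in BTBR.

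The interaction, which tests whether the ASIV difference differed between strains, was called for 2 of the 10 genes, both more negative in BTBR. Over all genes 6.91% were called higher and 7.36% lower. The interaction was -0.71 ± 0.18 for Hsp90b1 and -0.55 ± 0.15 for Creld2 (adjusted p = 0.0222 and 0.0270, limma). For Hspa5 it was as large, at -0.71 ± 0.23, but did not pass (adjusted p = 0.0548), and for Pdia6 it was -0.56 ± 0.18 (adjusted p = 0.0554). These calls lie close to the threshold: Hspa5 and Pdia6 were called after rescaling to TPM (a scale on which every library has the same total over genes) and with voom, and Creld2 was lost with voom (adjusted p = 0.0627). The Hsp90b1 call was lost without C57 vehicle replicate 1 or 3 (adjusted p = 0.0563 and 0.0601). The Creld2 call was lost without C57 vehicle replicate 1 or 2, C57 ASIV replicate 2 or 3, or BTBR ASIV replicate 2 (adjusted p = 0.0729, 0.0538, 0.0621, 0.0526 and 0.0585).

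FPKM divides by all mapped fragments, so the scaling itself was varied. After rescaling each library to TPM over nuclear genes, a choice made after seeing the data, the median of all genes was -0.11 between strains under vehicle and 0.14 with ASIV in BTBR, in place of 0.01 and -0.01. The split of all calls moved from 3026 higher and 2832 lower to 2009 and 3715 between strains, and from 1864 and 2090 to 3056 and 1103 with ASIV. For the interaction it moved from 939 and 1000 to 1297 and 569, and to 1086 and 763 when only the mitochondrial genome was left out of the total. Between strains that last scaling called 2575 higher and 3243 lower (median -0.0364). Median ratio scaling called 2936 and 2920 there (median 0.0016), and TPM over all genes 3282 and 2312 (median 0.0687). On the TPM scale over nuclear genes Creld2, Hspa5, Pdia6 and Hsp90b1 were still called higher in BTBR vehicle, while Pdia4 was not (0.22, adjusted p = 0.146, limma). Ddit3 was still called lower there, and Manf was called lower as well (-0.36, adjusted p = 0.0494). With ASIV in BTBR Creld2, Hspa5 and Pdia6 were still called lower, and Hsp90b1 was at -0.31 (adjusted p = 0.0546). Ddit3 and Manf were called higher with ASIV, at 0.50 and 0.39 (adjusted p = 0.0104 and 0.0463).

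Across the 12 libraries, Pearson's r of log2(FPKM + 1) with Hspa5 was 0.94 for Pdia6, 0.83 for Hsp90b1, 0.78 for Creld2 and 0.72 for Pdia4. It was 0.40 for Xbp1, 0.33 for Sdf2l1, 0.20 for Calr, -0.08 for Manf and -0.47 for Ddit3. Calr and Manf were close to each other, with r = 0.81, and Creld2 and Ddit3 ran opposite, with r = -0.67. These values describe libraries that share groups and group differences, and carry no test. Among the 13585 other tested genes, Pdia6 ranked at place 10 by likeness to Hspa5, Hsp90b1 at 572 and Creld2 at 996. The 5 most similar genes were Pdia3, which encodes the disulfide isomerase ERp57 that works with calreticulin (r = 0.97), Cutc (0.96), Mrpl11, a mitochondrial ribosomal protein gene (0.95), Tceal9 (0.95) and the predicted gene Gm10221 (0.95). Pdia3 stood at 43.7 ± 3.13 FPKM in C57 vehicle, 67.3 ± 10.4 in BTBR vehicle and 48.9 ± 7.68 in BTBR ASIV (SD, n = 3).

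The other ER chaperones and folding enzymes, a list of 23 genes outside the 10 with 22 tested, was called mostly in the directions of Hspa5. Under vehicle 12 of 22 were higher and 2 lower in BTBR, with a median of 0.33. With ASIV in BTBR 12 were lower and none higher, with a median of -0.29. Over all genes 22.3% were higher and 20.8% lower between strains, and 13.7% were higher and 15.4% lower with ASIV in BTBR. Fkbp2, which encodes an ER prolyl isomerase, was at 83.5 ± 1.32 FPKM in C57 vehicle, 219 ± 24.4 in BTBR vehicle and 94.0 ± 6.68 in BTBR ASIV (SD, n = 3). Its log2 differences were 1.37 ± 0.13 and -1.21 ± 0.13 (adjusted p = 1.01e-05 and 8.27e-05, limma). Sdf2, the paralogue of Sdf2l1, was called at 0.89 and -0.68, Dnajc3, a DnaJ co-chaperone of BiP, at 0.65 and -0.33, and P4hb, which encodes protein disulfide isomerase itself, at 0.61 and -0.45. Dnajb9 and Erp44 were the 2 genes called lower in BTBR vehicle, at -0.34 and -0.35. DnaJB9 is a BiP co-chaperone induced through XBP1, and ERp44 retains client proteins in the early secretory pathway. Without C57 vehicle replicate 1 both calls were lost (adjusted p = 0.0586 and 0.0564, limma), and that of Dnajb9 also without C57 vehicle replicate 2 or BTBR vehicle replicate 3 (0.0654 and 0.0686). On the TPM scale over nuclear genes the counts were 9 higher and 2 lower between strains, and 3 higher and 6 lower with ASIV. The fit on the BTBR libraries alone called 6 lower with ASIV, and Dnajc3 was not among them (adjusted p = 0.0734), nor was it called on the TPM scale over nuclear genes (-0.20, adjusted p = 0.135). The interaction was called for 8 of 22, all more negative in BTBR, against 6.91% of all genes called higher and 7.36% lower.

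Few of the stress sensors and their activating proteases were called. The shares of all genes were 22.3% higher and 20.8% lower between strains, and 13.7% higher and 15.4% lower with ASIV in BTBR. Of 8 genes tested, none was higher and 1 was lower in BTBR vehicle: Atf6, at 9.74, 9.61 and 9.78 FPKM in C57 vehicle and 6.94, 8.29 and 7.27 FPKM in BTBR vehicle (-0.34 ± 0.10, adjusted p = 0.0176, limma). The Atf6 call was lost without C57 vehicle replicate 1 or BTBR vehicle replicate 1 (adjusted p = 0.0505 and 0.0586). With ASIV in BTBR none was higher and Eif2ak3, which encodes PERK, was lower (-0.38 ± 0.10, adjusted p = 0.0173), a call lost in the fit on the BTBR libraries alone (0.0727) and without BTBR vehicle replicate 2 or BTBR ASIV replicate 1 (0.0558 and 0.0504). Without BTBR vehicle replicate 1, Eif2ak3 was called higher between strains (0.33, adjusted p = 0.0197). On the TPM scale over nuclear genes 2 were lower between strains, and with ASIV 1 was higher and 0 were lower. Ern1, which encodes IRE1, was at 0.20 ± 0.12 and -0.16 ± 0.12 in the 2 comparisons, and Creb3 was at -0.16 ± 0.11 and 0.15 ± 0.11, none of which passed.

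Genes of the integrated stress response, which includes ATF4 and which PERK is not alone in activating, were mixed. Of 17 tested, 4 were higher and 2 lower in BTBR vehicle (all genes: 22.3 and 20.8%), and 1 was higher and 4 lower with ASIV in BTBR (all genes: 13.7 and 15.4%). On the TPM scale over nuclear genes both splits turned, to 2 higher and 5 lower between strains and to 2 higher and 1 lower with ASIV. The splits of all 13586 genes turned there too, to 2009 higher and 3715 lower and to 3056 higher and 1103 lower. The fit on the compared groups alone called 4 higher and 4 lower between strains, and 0 higher and 2 lower with ASIV. Without BTBR vehicle replicate 3, BTBR ASIV replicate 1 or BTBR ASIV replicate 2, 0 were higher with ASIV. The 2 lower genes between strains were Sesn2, at -0.57 ± 0.09, and Chac1, at -0.62 ± 0.15 (adjusted p = 0.000478 and 0.00588, limma). Phgdh and Sars, for serine synthesis and seryl-tRNA synthesis, were among the 4 higher genes, at 0.82 ± 0.15 and 0.36 ± 0.08. The Sars call was lost on the TPM scale over nuclear genes (0.23, adjusted p = 0.0538, limma). Chac1 was also lower in BTBR under ASIV, at -0.64 ± 0.15 (adjusted p = 0.0462), and was the 1 gene of the 5 pathway lists called there.

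In ER-associated degradation, which returns misfolded proteins to the cytosol, 7 of 19 genes were higher and 3 lower in BTBR vehicle (all genes: 22.3 and 20.8%). With ASIV in BTBR 2 were higher and 6 lower (all genes: 13.7 and 15.4%). On the TPM scale over nuclear genes 5 were higher and 5 lower between strains, and 3 were higher and 2 lower with ASIV. The fit on the BTBR libraries alone called 1 higher and 3 lower with ASIV, and 1 was higher without BTBR ASIV replicate 1 or 2. Herpud1, a stress-induced organiser of the degradation complex, was lower in BTBR vehicle, at 11.7 ± 0.897 FPKM against 19.3 ± 0.270 in C57 vehicle, and stood at 16.5 ± 0.717 in BTBR ASIV (SD, n = 3). Its differences were -0.67 ± 0.10 and 0.46 ± 0.10 (adjusted p = 0.000201 and 0.00394, limma). Vcp, which encodes the ATPase that extracts the proteins, was at 0.45 and -0.45, and Edem2, for mannose trimming, was at 0.39 and -0.26, all called. The call for Edem2 with ASIV was lost in the fit on the BTBR libraries alone (adjusted p = 0.115, limma), and without any 1 of 5 of the 6 libraries compared, BTBR ASIV replicate 1 being the exception (0.0661 to 0.131). Its call between strains was lost on the TPM scale over nuclear genes (0.31, adjusted p = 0.0511).

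Of 18 translocon and signal peptidase genes, 4 were higher and 3 lower in BTBR vehicle, and 3 were higher and 5 lower with ASIV in BTBR. The shares between strains are close to those of all genes (22.3 and 20.8%). With ASIV in BTBR the shares of all genes were 13.7% higher and 15.4% lower. Leaving out C57 vehicle replicate 2 or BTBR vehicle replicate 2 left 2 higher between strains. Leaving out BTBR vehicle replicate 2 or BTBR ASIV replicate 1 left 1 lower with ASIV, and the other 4 libraries 2 to 4. Without BTBR vehicle replicate 3 or BTBR ASIV replicate 2, 1 was higher with ASIV. The fit on the BTBR libraries alone called 1 higher and 1 lower. On the TPM scale over nuclear genes the counts were 2 and 7, and 6 and 1. The direction of this list turned on that scale, and so did that of all genes. Of 13586 genes, 2009 were higher and 3715 lower between strains there, and 3056 higher and 1103 lower with ASIV. In 10 of the 11 settings other than the main fit, both counts between strains stayed within 1.5 times of those given. Sec11a, a catalytic subunit of signal peptidase, stood at 3.48, 3.60 and 4.0 FPKM in C57 vehicle, 8.34, 9.25 and 8.53 FPKM in BTBR vehicle and 4.06, 5.45 and 5.18 FPKM in BTBR ASIV. The log2 differences of Sec11a were 1.05 ± 0.11 and -0.73 ± 0.11 (adjusted p = 2.33e-05 and 0.00059, limma). Sec62 was at 0.55 and -0.37, while Sec61b, a subunit of the translocation channel, and Srpr, the receptor of the signal recognition particle, ran the other way, at -0.58 and 0.40 and at -0.36 and 0.27. The Sec62 and Srpr calls with ASIV were lost in the fit on the BTBR libraries alone (adjusted p = 0.116 and 0.119). The Sec62 call was also lost without BTBR vehicle replicate 2 or 3, or BTBR ASIV replicate 1 or 3 (0.0626 to 0.144), and the Srpr call without BTBR vehicle replicate 3, or BTBR ASIV replicate 1 or 2 (0.0685 to 0.112).

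**Figure D4:**
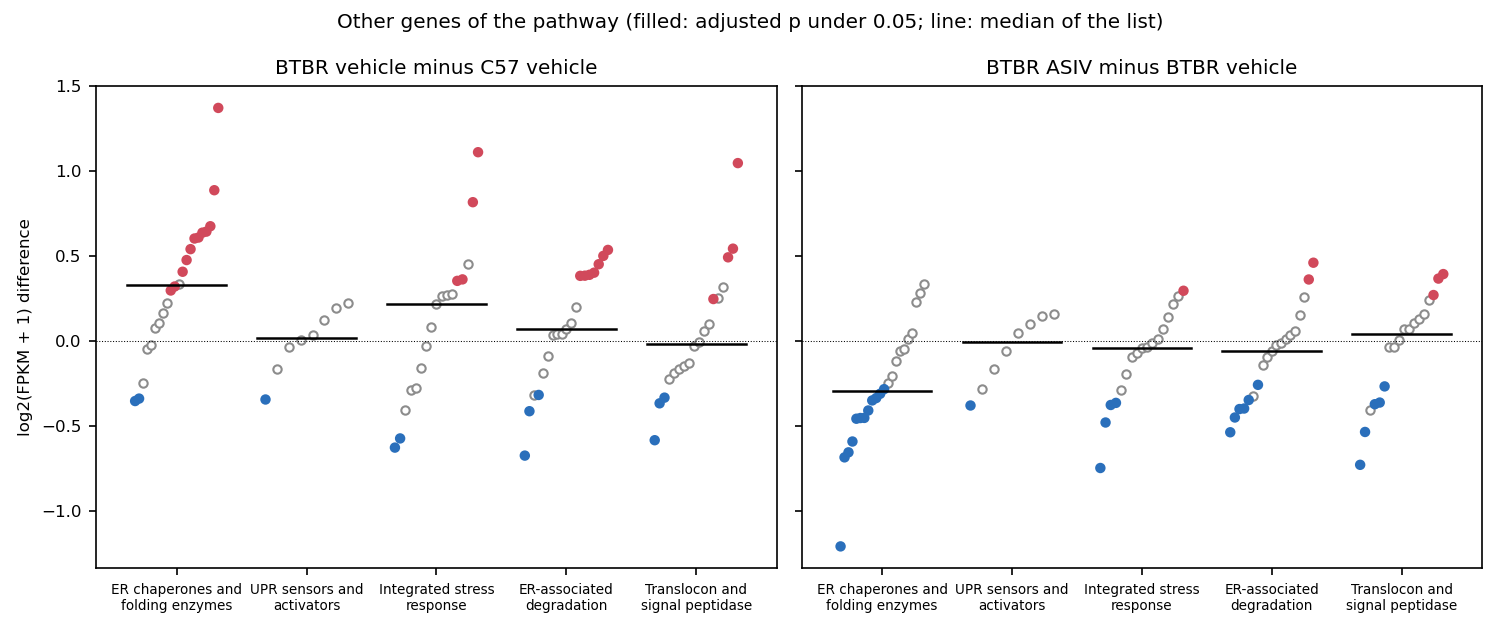
Log2(FPKM + 1) difference of each tested gene of the 5 other lists of the pathway, left for BTBR vehicle minus C57 vehicle and right for BTBR ASIV minus BTBR vehicle. Each point is a gene, filled where the adjusted p was under 0.05 (red higher, blue lower), and the black line is the median of the list. The chaperone list has its median at 0.33 on the left and -0.29 on the right, and the medians of the sensor list lie near 0. The 2 panels share the BTBR vehicle libraries.

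Outside the 10 genes, 10 tested genes had the promoter element. Of these, 3 were higher in BTBR vehicle (Dnajc3, Canx and Zfp57) and 1 was lower (Hnrnpa3), and 2 were lower with ASIV in BTBR (Dnajc3 and Canx, at -0.33 and -0.45). The Dnajc3 and Canx calls with ASIV were both lost in the fit on the BTBR libraries alone (adjusted p = 0.0734 and 0.0707, limma) and on the TPM scale over nuclear genes (0.135 and 0.0664), and that of Canx without BTBR ASIV replicate 1 (0.0667). The Canx call between strains was lost on the TPM scale over nuclear genes (0.0699) and without C57 vehicle replicate 1 or BTBR vehicle replicate 2 (0.0667 and 0.0579). Canx encodes calnexin, the membrane-bound counterpart of calreticulin. Among the 9914 tested genes with a promoter window, 22.8% were higher and 20.7% lower in BTBR vehicle, and 13.3% were higher and 15.6% lower with ASIV in BTBR. Of the 5 genes with the element among the 10, Hspa5, Hsp90b1, Pdia6 and Creld2 were called in both comparisons and Calr in neither, and Pdia4 was called between strains with no element in its window.

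In bulk tissue a lower level can come from fewer cells of a type or from less RNA per cell, and these cannot be told apart. Between strains under vehicle, 22.3% of all genes were called higher and 20.8% lower. Under vehicle, of 8 neuron markers none was higher and 2 were lower in BTBR, with a summed level of 904 to 1121 FPKM against 1176 to 1301 in C57. Of 8 astrocyte markers 1 was higher and 3 lower (514 to 685 against 694 to 811 FPKM), of 8 oligodendrocyte markers 2 were higher (625 to 1337 against 725 to 841), and of 8 microglia markers 2 were higher and 3 lower (156 to 193 against 169 to 199). Of 8 endothelial and mural markers 1 was higher (147 to 202 against 138 to 166), but 6 of the 8 differences were below 0, with a median of -0.14. Of 4 tested choroid plexus and meningeal markers 1 was higher and 1 lower, at no more than 13.7 FPKM summed over 6 genes in any library. None of 8 striatal neuron markers was called, but 7 of the 8 differences were above 0, with a median of 0.31. Their sum varied within every group, from 59.9 to 173 FPKM in C57 vehicle and 69.3 to 166 in BTBR vehicle. It ran from 46.7 to 205 FPKM in C57 ASIV and from 44.5 to 368 in BTBR ASIV. Every one of the 13 mitochondrially encoded mRNAs was lower in BTBR vehicle, with a median of -4.38. With ASIV in BTBR, 13.7% of all genes were called higher and 15.4% lower. Astrocyte sums were 697 to 765 FPKM in BTBR ASIV, above the 514 to 685 of BTBR vehicle without overlap, with 1 of 8 called higher and 1 lower and a median of 0.24. Of the oligodendrocyte markers 2 were lower (541 to 984 FPKM in BTBR ASIV), with a median of -0.36. No neuron marker was called (876 to 1045 FPKM in BTBR ASIV), and 2 microglia markers were higher and 2 lower (172 to 229). Of the endothelial and mural markers 1 was higher and 1 lower (128 to 167), while 7 of 8 differences were above 0, with a median of 0.27. Among the 4 choroid plexus and meningeal markers 1 was higher and 1 lower. No striatal neuron marker was called, but all 8 differences were above 0, with a median of 0.37. Every one of the 13 mitochondrially encoded mRNAs was higher with ASIV in BTBR, with a median of 3.72. The part of these cell type markers in the differences of the 10 genes was not tested.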

How the data were processed

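RNA libraries from the mPFC of 12 samples were sequenced and deposited by the authors as 1 table of FPKM values per gene. Reads were aligned with HISAT2 2.0.5 to mm10, per the submitters' processing notes. The counter, annotation, filter and strand setting were not given in the sources used here. Ensembl identifiers were matched to GENCODE M21 symbols (17273 of 17283).

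Whole fragments were recovered from the FPKM values and gene lengths, and 97.6 to 98.0% of values under 50 fragments came out whole (tolerance 0.02). Levels were tested as log2(FPKM + 1), which understates changes of low genes, with limma 3.58.1 (R 4.3.3) on all 12 libraries, on genes that reached an FPKM of 1 in no fewer than 3 libraries. P-values were Benjamini-Hochberg adjusted over the 13586 genes in each of 5 comparisons, and called means an adjusted p under 0.05. A fold is the ratio of FPKM + 1. FPKM values are not counts, so voom ran on recovered fragments as an alternative. The fit was tested on simulated data. Tables and figures used Python 3.11.15, numpy 2.4.6, pandas 2.3.3 and matplotlib 3.10.9.

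The 10 genes, the 5 pathway lists and the marker lists were chosen with earlier results of these data known. All 10 genes are named, with up to 4 per pathway list by smallest p between strains under vehicle and the 5 nearest to Hspa5. A gene that this rule names is not reported here. Canx, Zfp57, Hnrnpa3, Dnajb9 and Erp44 were named after their values were seen. Other settings were a pseudocount of 0.1, no filter or a minimum of 5, scaling, the groups fitted, voom, a block for replicate number and each library left out. Promoters are from RefSeq.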

Additional observations from a re-analysis of the deposited data

Results flagged for a closer look

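Among the 10 genes, Hsp90b1 and Creld2 were picked out because the effect of ASIV differed between BTBR and C57 by the interaction test. The difference of the ASIV effects, BTBR minus C57, was -0.71 for Hsp90b1 and -0.55 for Creld2 on the log2(FPKM + 1) scale (adjusted p = 0.0222 and 0.0270, limma). For Hsp90b1 it joins a decrease in BTBR of -0.46 to a difference in C57 of 0.25 that did not pass the test. For Creld2 it joins -0.62 in BTBR to -0.07 in C57, which did not pass either.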

How the results depend on the processing

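Of 910 recomputed differences of the 10 genes, 826 kept their direction and their side of the threshold, 38 changed sign, 30 lost a call and 16 gained one. Leaving out 1 library at a time gave 4 to 5 genes higher and 0 to 1 lower between strains under vehicle, 0 to 1 higher and 1 to 4 lower with ASIV in BTBR, and 0 to 3 with a more negative interaction. Over all 13586 genes the same fits called 2337 to 3027 higher and 2170 to 2874 lower between strains under vehicle. With ASIV in BTBR they called 1434 to 1842 higher and 1637 to 2153 lower. For the interaction they called 552 to 1188 more negative. The fit on the compared groups alone called 1 lower with ASIV in BTBR, and 1147 of all 13586 genes lower, against 2090 in the main fit. For the interaction, the stricter filter (FPKM of at least 5), rescaling to TPM and the replicate block each called 4, in place of 2. Of all genes they called 1021 of 8235, 1104 of 13586 and 961 of 13586 more negative, against 1000 of 13586 in the main fit. TPM over nuclear genes, added after seeing the data, called 2 lower between strains under vehicle, 2 higher with ASIV in BTBR and 1 for the interaction. The 2 genes were Ddit3 and Manf in both comparisons. Of all genes that scale called 3715 lower between strains, 3056 higher with ASIV and 569 with a more negative interaction. Rescaling without the mitochondrial genome called 1 higher with ASIV in BTBR, and 2173 of all genes higher, against 1864 in the main fit. Where no construction of the setting shows it, the cause was not tested.

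Whether the replicate numbers pair the libraries was not settled. Over 18 same-numbered pairs the correlation of deviations ran from -0.172 to 0.279, with 8 above 0.1, and 6 of 12 libraries correlated best with their own number. With the block the interaction also called Hspa5 (-0.71) and Pdia6 (-0.56).

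Signs turned only for differences that had not passed. With TPM over nuclear genes the interaction became 0.0534 for Calr, 0.0171 for Pdia4 and 0.0013 for Xbp1, the strain difference under vehicle -0.0967 for Sdf2l1 and -0.035 for Xbp1, that under ASIV -0.0004 for Ddit3, and the ASIV difference in BTBR 0.0918 for Xbp1. With quantile normalization the interaction was 0.0128 for Calr and the ASIV difference in BTBR 0.0195 for Xbp1. Without the mitochondrial genome Sdf2l1 was at -0.0231 between strains under vehicle.

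Leaving out libraries gave these ranges where a sign turned. Between strains under vehicle they were -0.1887 to 0.0012 for Calr and -0.0777 to 0.1355 for Sdf2l1. Between strains under ASIV they were -0.3387 to 0.0052 for Calr, -0.0595 to 0.281 for Hspa5, -0.1916 to 0.0562 for Pdia6, -0.1445 to 0.0495 for Xbp1, -0.0676 to 0.131 for Ddit3 and -0.0819 to 0.2395 for Manf. With ASIV in BTBR they were -0.1167 to 0.1295 for Calr, -0.1881 to 0.0059 for Xbp1 and -0.0832 to 0.0623 for Pdia4. With ASIV in C57 they were -0.1031 to 0.2408 for Calr, -0.0205 to 0.1475 for Pdia6, -0.1721 to 0.0266 for Ddit3 and -0.2296 to 0.0918 for Manf. The interaction of Calr ran from -0.2295 to 0.1145. Outside the 10 genes, Hnrnpa3 ran from -0.2755 to 0.2401 with ASIV in BTBR. Depth limits Sdf2l1 and Creld2 most, with at least 119 and 162 fragments per library.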
